A study of Mus musculus with 15 samples.

Results

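Among 10245 protein-coding genes expressed at 2 CPM or more in every organoid library from primary tumours of rounds 2 and 3, 61 were low in every library of liver metastases of the same rounds. The 61 were chosen by these values: the lowest CPM over the 6 Primary libraries had to be at least 2, and the highest CPM over the 6 later metastasis libraries had to be at or below 0.25 of it. CPM is the usual scaling of each count to the summed counts of its library. The rule took 0.595% of the 10245 genes. The difference between later metastases and primaries is therefore a description throughout and carries no test.

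Mouse colon cancer organoids, 3-dimensional cultures of tumour epithelium, of the genotype labelled AKP were transplanted into the colon of C57Bl6 mice. New organoids were derived from liver metastases or primary tumours and transplanted again, over 3 rounds. Met1, Met2 and Met3 are organoids of metastases of the numbered round, Primary2 and Primary3 those of the primary tumours, and each of these 5 groups has 3 libraries (rep 1 to 3). All groups share the genotype, the recipient strain and the poly(A)-selected library preparation. No library comes from a primary tumour of round 1. Met1 and the primaries therefore differ in transplant round as well as in site, and the 2 cannot be told apart. The design text speaks of several organoid lines per round, but the labels do not tie libraries to lines, mice or cultures, and a p-value here reflects library-to-library spread that may be technical. No label names ages, clones or sequencing batches.

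Total counts ran from 14122203 to 21306543 a library. Gata6, the gene of the series title, stood at 6.53, 28.7 and 22.4 CPM in Met1, at 1.19, 0 and 0.134 in Met2 and at 0.107, 0 and 0 in Met3, against 3.22, 9.01 and 3.67 in Primary2 and 8.07, 4.47 and 9.43 in Primary3. It is not among the 61, because its lowest Primary level was less than 4 times its level in Met2 rep 1. Of 10 intestinal epithelial markers 9 exceeded 1 CPM in at least 1 library, summing to 5504 to 14101 CPM in metastases and 5828 to 8346 in primaries. Summed fibroblast markers reached 5.09 CPM in Met2 rep 1, where Dcn (2.25), Col3a1 (1.65) and Pdgfra (1.06) passed 1 CPM. In the groups other than Met2 that sum stayed at 0.807 CPM or less. Summed smooth muscle markers stayed at 1.56 CPM or less in every library. The part of such transcripts in the levels of the 61 genes was not tested. Summed hepatocyte markers reached 6.53 CPM in metastases and 30.7 in primaries, but single markers went different ways. Alb had 1.01 to 6.20 CPM in Met1, at most 0.0616 in Met2 and Met3 and at most 0.778 in primaries. Apob had at most 1.90 CPM in Met1, 0.0661 in Met2 and Met3, 29.8 in Primary2 and 1.42 in Primary3. Msln, a mesothelial marker, held 142 to 765 CPM in metastases and 471 to 658 in primaries. Without Met2 rep 1 the number of genes meeting the rule was 120.

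A cell's set of expressed genes is held by transcription factors and by the packing of chromatin. Promoters of genes used in every cell are mostly rich in CpG dinucleotides, whereas promoters of many tissue-restricted genes hold few of them, and methylation of CpG accompanies stable silencing at many promoters. Colorectal cancer spreads most often to the liver. Tumour epithelium that grows there is exposed to other ligands, matrix and immune cells than in the colon.

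Of the 61 genes, 39 had a promoter sequence in the RefSeq table (GRCm38.p6; 250 bases before to 50 after the start), and 6 are shown. Bex1, Tlx1 and Timp3 are shown because their mean levels in Met2 and Met3 were among the 8 lowest relative to the primaries and they span few to many CpG. Capitals mark every CpG, 8 for Bex1 (chrX:136215464-136215763, minus strand), 16 for Tlx1 (chr19:45150465-45150764, plus strand) and 24 for Timp3 (chr10:86300162-86300461, plus strand).
Bex1: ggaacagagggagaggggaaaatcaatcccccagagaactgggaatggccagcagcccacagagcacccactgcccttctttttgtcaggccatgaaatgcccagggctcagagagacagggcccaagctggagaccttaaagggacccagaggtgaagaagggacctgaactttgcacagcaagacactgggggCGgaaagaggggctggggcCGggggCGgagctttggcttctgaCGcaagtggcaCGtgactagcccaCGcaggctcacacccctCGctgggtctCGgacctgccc
Tlx1: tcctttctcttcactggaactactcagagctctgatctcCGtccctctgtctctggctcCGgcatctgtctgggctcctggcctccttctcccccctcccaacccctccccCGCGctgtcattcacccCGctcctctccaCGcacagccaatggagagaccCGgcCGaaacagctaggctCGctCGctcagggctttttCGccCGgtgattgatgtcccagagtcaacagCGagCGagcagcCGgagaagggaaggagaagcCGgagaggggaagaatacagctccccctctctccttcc
Timp3: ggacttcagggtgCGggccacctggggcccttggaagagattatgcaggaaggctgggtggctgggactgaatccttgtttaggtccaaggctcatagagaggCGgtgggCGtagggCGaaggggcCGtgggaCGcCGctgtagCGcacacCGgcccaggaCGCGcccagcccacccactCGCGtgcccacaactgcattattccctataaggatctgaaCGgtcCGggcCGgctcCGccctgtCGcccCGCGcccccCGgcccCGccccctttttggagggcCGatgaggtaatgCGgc

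Cldn2 (chrX:139800558-139800857), Muc1 (chr3:89228806-89229105) and Ifi47 (chr11:49076337-49076636), all on the plus strand, are shown because each holds the letters TATAAA, in capitals here, shortly before its start. The letters begin 35, 31 and 25 bases upstream of it.
Cldn2: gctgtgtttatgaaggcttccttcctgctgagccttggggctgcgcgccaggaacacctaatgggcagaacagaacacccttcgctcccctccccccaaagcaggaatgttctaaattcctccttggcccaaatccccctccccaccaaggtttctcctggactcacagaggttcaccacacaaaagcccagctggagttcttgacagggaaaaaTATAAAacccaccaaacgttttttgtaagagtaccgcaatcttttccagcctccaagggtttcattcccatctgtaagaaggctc
Muc1: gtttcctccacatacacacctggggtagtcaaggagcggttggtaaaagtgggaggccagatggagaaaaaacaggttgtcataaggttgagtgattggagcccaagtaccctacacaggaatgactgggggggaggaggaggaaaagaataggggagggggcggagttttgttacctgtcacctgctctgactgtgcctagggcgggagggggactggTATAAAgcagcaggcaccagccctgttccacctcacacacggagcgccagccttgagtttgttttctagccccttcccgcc
Ifi47: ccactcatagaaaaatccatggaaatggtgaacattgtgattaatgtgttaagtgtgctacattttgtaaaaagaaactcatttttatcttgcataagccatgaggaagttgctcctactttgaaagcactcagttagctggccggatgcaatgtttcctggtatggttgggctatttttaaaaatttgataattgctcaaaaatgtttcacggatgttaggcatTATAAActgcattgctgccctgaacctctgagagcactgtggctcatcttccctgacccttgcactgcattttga
TATAAA was searched on both strands and stood in 7 of the 39 promoters, or 17.9%, and in 6.35% of the 8167 promoters of all genes past the Primary minimum. Both shares count matches anywhere in the window, not only shortly before the start. In Ggta1, Gpr141, Naip5 and Pcbd1 the letters lay near the upstream end of the window. The windows of Ggta1 and Naip5 also did not reach the annotated start of the gene. TGANTCA, the letters of AP-1 sites, stood in 10.3% against 4.57%, CACGTG in 2.56% against 10.8% and AGATAA, a motif added after the data were seen, in 12.8% against 5.77%. Matches of the first and last motif can overlap, and such overlaps were not separated. With 63.9% of the 61 genes represented, fewer than needed for a set comparison, these shares describe the 39 promoters and not the 61 genes.

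Levels summed over the 61 genes came to 734, 1738 and 2221 CPM in Met1, 192, 163 and 69.4 CPM in Met2 and 77.6, 147 and 94.1 CPM in Met3, against 3110.2, 3601 and 4118 CPM in Primary2 and 4271, 4154 and 4635 CPM in Primary3. Met1 thus lay between the other sets in each of its 3 libraries. In such bulk samples fewer cells expressing a gene and less RNA per cell cannot be told apart. Mean levels in the primaries ran from 3.61 CPM (Gm3636) to 522 CPM (Ppic), with a median of 21.1 against 36.1 CPM over all 10245 genes. In Met2 and Met3 the mean level was 3.02% of that in the primaries at the median gene and 10.3% at most. The remaining level varied: 40 of the 61 genes averaged under 1 CPM in the later metastases, while Clu averaged 31.3 ± 14.9 CPM in Met2 and 26.3 ± 4.94 in Met3 (SD, n = 3). Tlx1 and Efemp1 held 0 counts in all 6 later libraries, and Bex1, Ggta1, Scara3, Tfap2b and Gpr141 held 1 to 3 counts over the 6. "Shut off" therefore describes only the lowest of them.

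**Figure D1:**
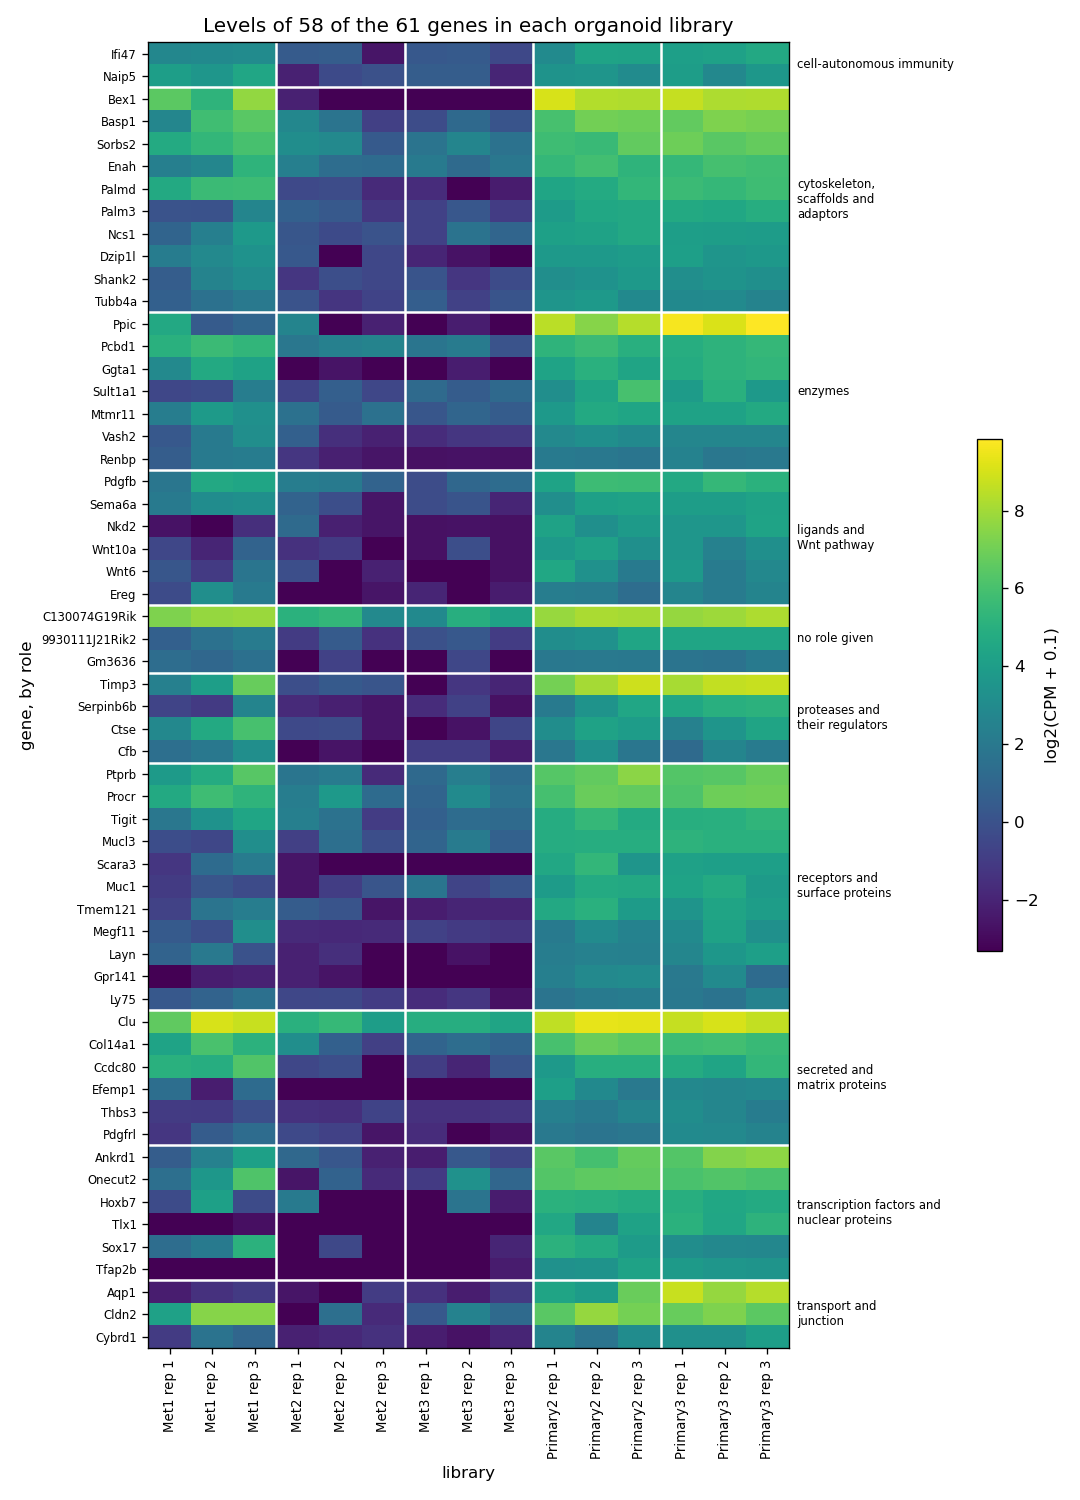
Level of 58 of the 61 genes (rows, by role) in each of the 15 libraries (columns, Met1, Met2, Met3, Primary2 and Primary3, 3 libraries each), as log2(CPM + 0.1). The 6 Met2 and Met3 columns are dark by the rule, and the 3 Met1 columns differ from gene to gene and among themselves.

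The threshold cut through a continuum. The genes just inside were Tubb4a, Sult1a1, Nkd2, Pdgfb and Vash2, whose highest later metastasis level was 0.238 to 0.247 of the lowest Primary level. Just outside were Inpp4b, Serpinb9, Ninl, Ptgs1 and Akap12, at 0.260 to 0.289. In 22 of the 61 genes the highest later level came from Met2 rep 1, in 12 each from Met2 rep 2 and Met3 rep 2, in 6 from Met3 rep 1, in 5 from Met2 rep 3 and in 2 from Met3 rep 3, while 2 genes were at 0 in all 6.

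Met1 was not used by the rule, and its libraries were tested against the primaries and against the later metastases with edgeR's quasi-likelihood test on all 14925 genes that passed the count filter (Benjamini-Hochberg adjusted p under 0.05). All 61 genes passed that filter. The Primary libraries, however, helped choose the genes for high values and the Met2 and Met3 libraries for low values, so both comparisons lean towards a lower value in the group named first (Met1 against the primaries, and Met2 and Met3 against Met1). Against the primaries Met1 was lower in 26 of the 61 genes and higher in 0, beside 14.7% lower and 14.9% higher among all genes tested. The median log2 change was -1.42 over the 61 genes and -0.03 over all genes. Met2 and Met3 were lower than Met1 in 49 of the 61 genes and higher in 0, beside 13.7% lower and 13.0% higher among all genes. The median log2 change was -3.32 over the 61 and 0.01 over all genes. Both comparisons share the 3 Met1 libraries.

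Without a test, Met1 stood in 5 ways. In 6 genes (Palmd, Pcbd1, Ccdc80, Ctse, Naip5 and Cfb) all 3 Met1 libraries reached at least the lowest Primary level. In 4 genes (Aqp1, Muc1, Nkd2 and Tfap2b) all 3 were at or below the highest later metastasis level. In 14 genes, among them Bex1, Timp3 and Scara3, all 3 lay strictly between. In 16 genes all 3 were below every primary and 1 or 2 of them within the range of the later metastases, and in 21 genes 1 or 2 Met1 libraries reached the primaries. All 3 Met1 libraries were below all 6 Primary libraries in 34 of the 61 genes, beside 14.3% of the 10245, and all 6 later libraries were below all 3 Met1 libraries in 34 of the 61, beside 19.3%.

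The Met1 libraries differed among themselves. Rep 3 was the highest of the 3 in 44 genes, rep 2 in 14 and rep 1 in 2, and rep 1 alone was the lowest in 41 (1 gene was at 0 in all 3). Rep 3 exceeded rep 1 in 55 of the 61 genes, in 24 of them at least 5-fold. Without rep 1 the count of genes lower in Met1 than in the primaries was 20, without rep 2 it was 22 and without rep 3 it was 31.

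**Figure D2:**
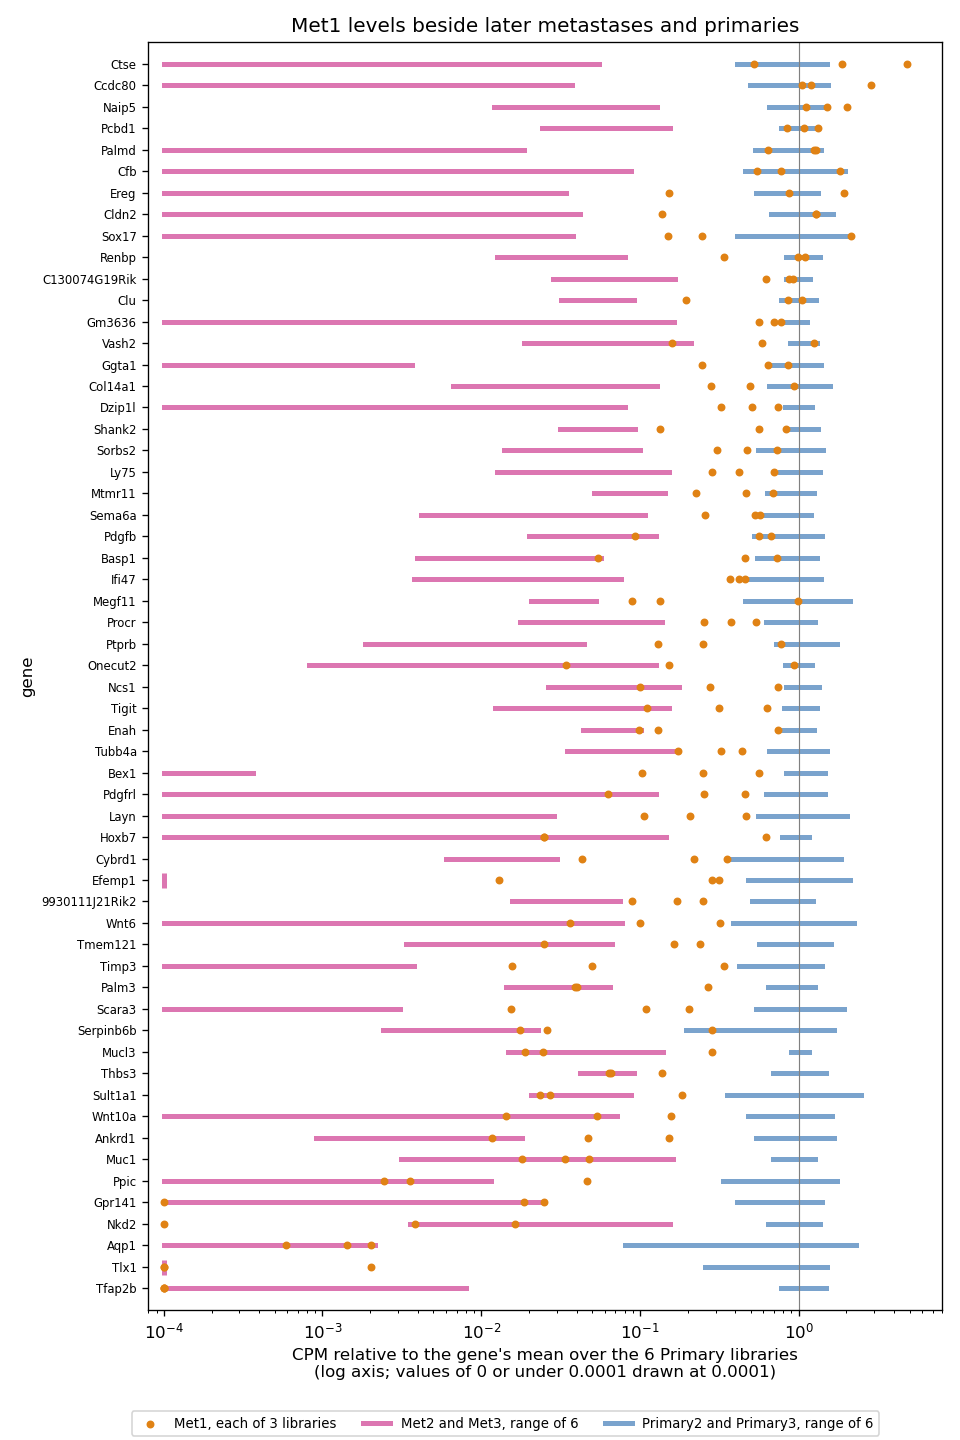
CPM of 58 of the 61 genes relative to each gene's mean over the 6 Primary libraries (log axis, values of 0 drawn at 0.0001), for each Met1 library (orange points) and as the range over the 6 Met2 and Met3 (pink) and the 6 Primary libraries (blue), sorted by the Met1 mean. From the bottom, Tfap2b, Tlx1 and Aqp1 have Met1 points at the level of the later metastases, and at the top Ctse and Ccdc80 have Met1 points within or above the range of the primaries.

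Of the 61 genes 6 are signalling ligands or parts of the Wnt pathway, which drives renewal of the intestinal epithelium. Wnt10a, a secreted Wnt ligand (ENSMUSG00000026167, chr1:74791516-74804179, GRCm38), had 0.264, 0.3699 and 0 CPM in Met2 and 0.0533, 0.807 and 0.0512 in Met3, against 13.3, 18.2 and 9.17 in Primary2 and 12.2, 5.396 and 9.199 in Primary3. Met1 held 0.604, 0.1602 and 1.75 CPM, all below the primaries and lower by the test (log2 -3.73, SE 0.92, adjusted p = 0.0106). Wnt6, the Wnt ligand encoded next to it (ENSMUSG00000033227, chr1:74771892-74785322), had 1.04, 0.374 and 3.32 CPM in Met1, 0.793, 0 and 0.134 in Met2 and 0, 0 and 0.0512 in Met3, against 23.1, 10.1 and 3.97 in Primary2 and 13.7, 4.403 and 6.86 in Primary3. Here too no Met1 library reached a primary (log2 -2.70, SE 0.91, adjusted p = 0.0397). That call of Wnt6 was lost without any 1 of 8 libraries, among them Met1 rep 1 (adjusted p = 0.125), Met1 rep 2 (0.146), Primary2 rep 1 (0.0855) and Primary3 rep 1 (0.0781), over a range of 0.00671 to 0.146.

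Nkd2, an intracellular feedback inhibitor of Wnt signalling (chr13:73818534-73847631), was near 0 in Met1 as well. It had 0.0549, 0 and 0.237 CPM in Met1, against 19.3, 9.29 and 14.4 in Primary2 and 12.04, 11.9 and 19.6 in Primary3 (log2 -7.09, SE 1.10, adjusted p = 0.00108). Of the later metastases Met2 rep 1 stood apart, with values of 2.25, 0.123 and 0.0671 in Met2 and 0.0533, 0.0538 and 0.0512 in Met3.

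Ereg, epiregulin, a ligand of the EGF receptor, had 0, 0 and 0.0671 CPM in Met2 and 0.1599, 0 and 0.102 in Met3, against 0.714, 9.13 and 4.07 in Met1 (log2 -6.40, SE 0.82, adjusted p = 0.000708). It had 4.67, 4.32 and 2.55 CPM in Primary2 and 6.23, 4.34 and 6.11 in Primary3, so that 2 Met1 libraries lay within or above their range and 1 below. Pdgfb, the B chain of platelet-derived growth factor, averaged 3.502 ± 1.55 CPM in Met2 and 1.73 ± 0.885 in Met3 (SD, n = 3), against 16.5 ± 11.4 in Met1. For Pdgfb the difference passed (log2 -2.64, adjusted p = 0.00499), but not with limma-voom (adjusted p = 0.0564). Sema6a, a membrane-bound guidance semaphorin, was likewise lower in Met2 and Met3 than in Met1 (log2 -3.19, adjusted p = 0.00262). For Pdgfb, Sema6a and Ereg the difference between Met1 and the primaries did not pass the test (log2 from -1.19 to 0.00, adjusted p = 0.128 to 1), although with limma-voom it did for Pdgfb (adjusted p = 0.0469) and Sema6a (0.0287), and for Sema6a also with only the groups compared in the fit (0.0225).

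Receptors and other surface proteins were the largest role group, with 12 genes. Of these 7 were lower in Met1 than in the primaries, beside 26 of the 61 genes and 14.7% of all genes tested. Gpr141, a G protein-coupled receptor (ENSMUSG00000053101, chr13:19749682-19824257), had 0, 0.107 and 0.142 CPM in Met1, against 5.06, 7.32 and 8.05 in Primary2 and 3.89, 7.75 and 2.34 in Primary3 (log2 -5.97, SE 0.82, adjusted p = 0.000983).

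Muc1, a transmembrane mucin of the apical surface (ENSMUSG00000042784, chr3:89229057-89233381), did not differ between rounds of metastasis by the test (log2 0.47, adjusted p = 0.629 for Met2 and Met3 against Met1). It had 0.384, 1.01 and 0.711 CPM in Met1, 0.0661, 0.432 and 1.01 in Met2 and 3.41, 0.538 and 0.973 in Met3. Primary2 had 15.003, 26.8 and 24.4 CPM and Primary3 20.04, 25.99 and 14.5. Met1 was lower than the primaries (log2 -4.92, SE 0.74, adjusted p = 0.00094). The mucin-like gene Mucl3 was also lower in Met1 than in the primaries (log2 -3.20, adjusted p = 0.0123). In Met1 it had 0.769, 0.588 and 8.91 CPM, the highest in rep 3.

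Scara3, a scavenger receptor (ENSMUSG00000034463, chr14:65919394-65953935), held 1 count over the 6 later libraries. In Met1 it had 0.329, 2.35 and 4.41 CPM, against 23.4, 41.3 and 11.6 in Primary2 and 18.6, 16.99 and 16.9 in Primary3 (log2 -3.18, SE 0.70, adjusted p = 0.00807). Met1 in turn exceeded the later metastases by a ratio of 254 (95% exact counting interval 44.9 to 10100, 1 against 143 counts). Layn, a hyaluronan receptor, and Tmem121, a membrane protein, were also lower in Met1 than in the primaries (log2 -1.86, adjusted p = 0.0339 and log2 -2.81, adjusted p = 0.00995), but the call of Layn was lost without any 1 of 7 libraries, with the highest adjusted p without Met1 rep 3 (0.117) and rep 1 (0.113).

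Ptprb, Procr and Tigit are known mainly from other cells: a tyrosine phosphatase of endothelium, a receptor for protein C and an inhibitory receptor of lymphocytes. Ptprb had 3.37, 4.38 and 0.201 CPM in Met2 and 2.19, 4.84 and 2.41 in Met3, against 14.2, 27.2 and 84.7 in Met1 (log2 -3.75, SE 0.60, adjusted p = 0.00166), and 83.2, 100.5 and 190.2 in Primary2 and 78.9, 86.02 and 115 in Primary3. Procr (log2 -2.74, adjusted p = 0.00287) and Tigit (log2 -2.18, adjusted p = 0.0117) were lower in Met2 and Met3 than in Met1 as well, the call of Tigit being lost without Met1 rep 3 (adjusted p = 0.0896) or with only the groups compared (0.0564). Of 5 endothelial markers, Kdr was at 0 in all 15 libraries and Vwf alone passed 1 CPM, at 2.18 to 46.5 CPM in Met1 and at most 0.986 in the other groups. Its part in the levels of Ptprb, Procr and Sox17 was not tested. Of 8 leukocyte markers, Adgre1, Lyz2 and Tyrobp were at 0 and Cd68 alone passed 1 CPM, at 7.59 to 29.2 CPM in metastases and 3.67 to 11.3 in primaries. Ly75, an endocytic receptor of dendritic cells, and Megf11, a membrane protein with EGF repeats, were lower in Met2 and Met3 than in Met1 (log2 -2.41, adjusted p = 0.00229 and log2 -3.58, adjusted p = 0.00281).

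Secreted or matrix proteins are encoded by 6 genes. Clu, clusterin, a secreted chaperone and marker of regenerating intestine (ENSMUSG00000022037, chr14:65968483-65981547), had 32.5, 45.6 and 15.8 CPM in Met2 and 29.2, 29.1 and 20.6 in Met3, against 98.1, 525 and 426 in Met1 (log2 -3.51, SE 0.42, adjusted p = 0.000518). In Primary2 it had 389, 643 and 629 and in Primary3 406, 532 and 398, so Met1 reps 2 and 3 lay among the primaries and rep 1 below them. Ccdc80, a secreted matrix-associated protein (chr16:45093402-45128077), had 0.595, 0.801 and 0 CPM in Met2 and 0.426, 0.161 and 1.02 in Met3, against 32.9, 29.003 and 78.2 in Met1 (log2 -6.40, SE 0.58, adjusted p = 0.000105). Its Met1 level was 169.8% of the Primary mean (13.6, 30.7 and 30.5 CPM in Primary2, 27.3, 20.7 and 42.2 in Primary3), a difference that did not pass (log2 0.73, adjusted p = 0.272).

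Efemp1, an extracellular matrix fibulin, had 2.58, 0.107 and 2.32 CPM in Met1 and 0 counts later, at least 58-fold lower in Met2 and Met3 than in Met1 (0 against 98 counts). Against 17.3, 7.603 and 3.92 CPM in Primary2 and 7.08, 6.45 and 6.86 in Primary3, the Met1 difference did not pass (log2 -2.34, adjusted p = 0.0604), although it did with DESeq2 (adjusted p = 0.0134), limma-voom (0.0182), no low-count filter (0.0343), only the groups compared (0.0396) or without Met2 rep 1 (0.0459). Thbs3, a thrombospondin, was low in Met1 as well. It had 0.384, 0.374 and 0.805 CPM in Met1, against 5.22, 4.04 and 6.11 in Primary2 and 8.78, 6.57 and 4.51 in Primary3 (log2 -3.48, SE 0.41, adjusted p = 0.00031). Col14a1, a fibril-associated collagen, and Pdgfrl, a secreted protein related to PDGF receptors, were lower in Met2 and Met3 than in Met1 (log2 -3.80, adjusted p = 0.00119 and log2 -2.70, adjusted p = 0.0127), the call of Pdgfrl being lost without Met1 rep 3 (adjusted p = 0.0776) or with only the groups compared (0.0592).

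Proteases and their regulators number 5 genes. Timp3, an inhibitor of matrix metalloproteinases (ENSMUSG00000020044, chr10:86300372-86349506), had 5.16, 16.4 and 111 CPM in Met1, 0.793, 1.23 and 1.01 in Met2 and 0, 0.323 and 0.154 in Met3, against 138, 271 and 462 in Primary2 and 277, 395 and 431 in Primary3. Met1 spread over a wide range below the primaries (log2 -2.91, SE 0.79, adjusted p = 0.0157), and that call of Timp3 was lost without Met1 rep 2 (adjusted p = 0.0759, range 0.00113 to 0.0759). Later metastases were lower again (log2 -6.64, SE 0.86, adjusted p = 0.000737). Ctse, the aspartic protease cathepsin E, had 0.661, 0.7398 and 0.0671 CPM in Met2 and 0, 0.0538 and 0.563 in Met3, against 6.97, 24.997 and 64.1 in Met1 (log2 -6.51, SE 0.82, adjusted p = 0.000623), while it had 8.72, 19.1 and 15.2 in Primary2 and 5.45, 11.6 and 20.2 in Primary3. Cfb, a serine protease of the complement system, was lower in Met2 and Met3 than in Met1 (log2 -5.64, adjusted p = 0.000518). Serpinb6b, an intracellular serpin with close paralogs, was lower in Met1 than in the primaries (log2 -3.06, adjusted p = 0.0183). That call was lost without Met1 rep 1 (adjusted p = 0.0609) or rep 2 (0.0688).

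Aqp1, Cldn2 and Cybrd1 serve transport. Aqp1, a water channel (ENSMUSG00000004655, chr6:55336432-55348555), had 0.1098, 0.267 and 0.379 CPM in Met1, 0.0661, 0 and 0.403 in Met2 and 0.266, 0.108 and 0.358 in Met3, against 20.6, 15.1 and 114 in Primary2 and 431, 216 and 326 in Primary3. All 9 metastasis libraries were alike near 0 (log2 -8.93, SE 0.92, adjusted p = 0.000177 for Met1 against the primaries, log2 -0.28, adjusted p = 0.882 for Met2 and Met3 against Met1). Cldn2, a tight junction protein that forms pores for cations and water (ENSMUSG00000047230, chrX:139800828-139811386), behaved differently, with 0, 2.65 and 0.201 CPM in Met2 and 1.12, 5.596 and 2.202 in Met3, against 18.3, 172 and 172 in Met1 (log2 -6.04, SE 0.81, adjusted p = 0.000777). Met1 reps 2 and 3 lay within the primaries (89.6, 219 and 135 in Primary2, 109, 154 and 91.5 in Primary3). Cybrd1, a ferric reductase of iron uptake, was lower both in Met1 than in the primaries (log2 -2.20, adjusted p = 0.012) and in Met2 and Met3 than in Met1 (log2 -3.51, adjusted p = 0.00174).

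Transcription factors and nuclear proteins number 7 genes. Tlx1, a homeobox factor of the developing spleen (ENSMUSG00000025215, chr19:45150680-45156943), held 1 count over the 3 Met1 libraries and 0 in Met2 and Met3, against 24.1, 6.05 and 19.2 CPM in Primary2 and 33.8, 22.3 and 35.7 in Primary3. The ratio of the primaries to Met1 was 1310, with counting limits of 234 and 51600 (adjusted p = 0.000291). Tfap2b, an AP-2 factor of neural crest and kidney (ENSMUSG00000025927, chr1:19208914-19238576), held 0 counts in Met1, against 9.89, 10.7 and 18.9 CPM in Primary2 and 14.2, 11.8 and 11.1 in Primary3, at least 247-fold lower (adjusted p = 0.000271). Met3 rep 3 held the only 2 counts of Tfap2b among the 9 metastasis libraries.

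Ankrd1, a nuclear cofactor and target gene of YAP (chr19:36111961-36120099), had 1.37, 5.501 and 17.8 CPM in Met1, 2.11, 1.11 and 0.134 in Met2 and 0.107, 1.13 and 0.563 in Met3, against 87.6, 63.03 and 105 in Primary2 and 79.7, 169 and 195 in Primary3. It was lower in Met1 than in the primaries (log2 -3.79, SE 0.77, adjusted p = 0.00412) and lower again in Met2 and Met3 (log2 -3.22, adjusted p = 0.00767), the second call being lost without Met1 rep 3 (adjusted p = 0.073) or with limma-voom (0.0707). Sox17, an endoderm and endothelial factor, had 0, 0.616 and 0 CPM in Met2 and 0, 0 and 0.154 in Met3, against 2.47, 4.01 and 34.9 in Met1 (log2 -6.81, SE 1.01, adjusted p = 0.00119). Its Met1 mean rested on rep 3, the only Met1 library to reach the primaries (34.5, 26.5 and 14.9 in Primary2, 8.78, 7.01 and 6.74 in Primary3).

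Onecut2, a factor of liver and gut endoderm on chromosome 18, had 0.0661, 1.66 and 0.201 CPM in Met2 and 0.373, 10.2 and 1.95 in Met3, against 2.75, 12.2 and 75.4 in Met1 (log2 -4.06, adjusted p = 0.00927), a call lost without Met1 rep 3 (adjusted p = 0.122), with limma-voom (0.0717) or with only the groups compared (0.0505). Hoxb7, a homeobox factor of body position, had 0.714, 17.8 and 0.711 CPM in Met1, 4.16, 0 and 0 in Met2 and 0, 3.28 and 0.102 in Met3, against 33.5, 31.8 and 27.3 in Primary2 and 30.2, 22.6 and 26.6 in Primary3. One library in each metastasis group stood above its group, and neither test of Met1 passed for Hoxb7 (log2 -2.15, adjusted p = 0.25 against the primaries, log2 -2.27, adjusted p = 0.197 for Met2 and Met3 against Met1), although the first passed with limma-voom (adjusted p = 0.00658) and the second without Met2 rep 1 (0.0329) or Met3 rep 2 (0.0494).

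Of 7 enzymes, Ppic was the most abundant of the 61 genes in the primaries. Ppic, cyclophilin C, a protein-folding enzyme of the secretory pathway (ENSMUSG00000024538, chromosome 18), had 24.4, 1.28 and 1.85 CPM in Met1, 6.01, 0 and 0.134 in Met2 and 0, 0.108 and 0 in Met3, against 357, 173 and 333 in Primary2 and 799, 554 and 916 in Primary3. Rep 1 was the highest library of both Met1 and Met2, and Met1 was far below the primaries (log2 -5.76, SE 1.18, adjusted p = 0.00432). Ggta1, which adds the alpha-gal sugar to surface glycans (ENSMUSG00000035778, chr2:35400179-35463231), held 3 counts over Met2 and Met3, against 7.19, 25.2 and 18.9 CPM in Met1, 593 times the later level with counting limits of 202 and 2880 (adjusted p = 9.06e-06 for Met2 and Met3 against Met1). It had 19.8, 32.1 and 20.2 CPM in Primary2 and 27.1, 36.9 and 40.4 in Primary3, and the difference of Met1 from these did not pass (log2 -0.79, adjusted p = 0.161), although it did with limma-voom (adjusted p = 0.0452) or the replicate block (0.0499).

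Sult1a1, a phenol sulfotransferase, was lower in Met1 than in the primaries (log2 -3.66, SE 0.81, adjusted p = 0.0064). It had 0.604, 0.694 and 4.69 CPM in Met1, against 9.11, 20.4 and 63.6 in Primary2 and 14.7, 32.1 and 13.9 in Primary3. Sult1a1 did not differ by the test between later metastases and Met1 (log2 -0.52, adjusted p = 0.623). Pcbd1, a dehydratase of pterin metabolism and cofactor of HNF1, had 3.63, 5.18 and 5.91 CPM in Met2 and 3.41, 4.41 and 0.922 in Met3, against 32.2, 50.2 and 40.9 in Met1 (log2 -3.32, SE 0.35, adjusted p = 0.000216), and 37.2, 50.1 and 31.9 in Primary2 and 29.2, 36.8 and 42.9 in Primary3. Renbp, an epimerase of sugar metabolism, Mtmr11, of the myotubularin family, and Vash2, part of an enzyme that trims tubulin, were lower in Met2 and Met3 than in Met1 (log2 -4.90, adjusted p = 0.00012, log2 -2.27, adjusted p = 0.00159 and log2 -3.35, adjusted p = 0.00307).

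Cytoskeletal, scaffold and adaptor proteins number 10 genes. Bex1, a small signalling adaptor (ENSMUSG00000050071, chrX:136213972-136215513), had 90.98, 37.7 and 206 CPM in Met1, against 536, 318 and 306 in Primary2 and 418, 302 and 308 in Primary3 (log2 -1.75, SE 0.46, adjusted p = 0.0163). Met1 lay below every primary in 3 of 3 libraries, and that call of Bex1 was lost without Met1 rep 1 (adjusted p = 0.0659, range 0.000585 to 0.0659). Over Met2 and Met3 Bex1 came to 2 counts, and Met1 stood at 5960 times that level, with counting limits of 1650 and 49200 (adjusted p = 1.38e-05 for Met2 and Met3 against Met1). Palmd, palmdelphin, a relative of the membrane protein paralemmin (ENSMUSG00000033377, chr3:116918258-116968987), had 0.661, 0.7398 and 0.201 CPM in Met2 and 0.213, 0 and 0.102 in Met3, against 25.4, 49.3 and 51.2 in Met1 (log2 -7.30, SE 0.41, adjusted p = 1.38e-06). All 3 Met1 libraries lay within the range of the primaries (20.9, 26.8 and 41.4 in Primary2, 50.3, 43.4 and 54.6 in Primary3).

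The related Palm3 was lower in Met1 than in the primaries (log2 -3.12, adjusted p = 0.00487). It had 0.933, 0.908 and 6.302 CPM in Met1, against 14.9, 22.9 and 24.3 in Primary2 and 25.5, 23.1 and 29.6 in Primary3. Enah, which extends actin filaments, and Tubb4a, a beta-tubulin, were lower in Met1 than in the primaries (log2 -1.66, adjusted p = 0.039 and log2 -1.67, adjusted p = 0.0113), the call of Enah being lost without any 1 of 6 libraries, with the highest adjusted p without Met1 rep 2 (0.157), and with only the groups compared (0.058). Basp1, a membrane-bound growth-cone protein, had 6.74, 3.27 and 0.47002 CPM in Met2 and 0.746, 2.15 and 0.973 in Met3, against 6.53, 55.1 and 87.6 in Met1 (log2 -4.45, adjusted p = 0.00147), where rep 1 was at the level of Met2 rep 1. Sorbs2, a cytoskeletal adaptor, Shank2, a synaptic scaffold, Ncs1, a calcium sensor, and Dzip1l, a protein of the cilium base, were lower in Met2 and Met3 than in Met1 (log2 from -5.00 to -2.27, adjusted p = 0.000737 to 0.0097), a call lost for Ncs1 without Met1 rep 3 (adjusted p = 0.0965).

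Ifi47, an interferon-induced GTPase, and Naip5, a sensor of bacterial flagellin, serve cell-autonomous immunity. Ifi47 had 1.26, 1.36 and 0.0671 CPM in Met2 and 1.12, 1.24 and 0.614 in Met3, against 6.64, 7.53 and 8.197 in Met1 (log2 -2.86, adjusted p = 0.00196). Naip5 had 0.132, 0.678 and 0.873 CPM in Met2 and 1.39, 1.399 and 0.154 in Met3, against 16.5, 12.1 and 22.03 in Met1 (log2 -4.36, adjusted p = 0.000518). Both belong to gene families whose members may share reads. Such sharing was not tested, so their values are uncertain, as are those of 9930111J21Rik2, Gm3636, Serpinb6b and Sult1a1. Of the 3 genes given no role here, 9930111J21Rik2 was lower in Met1 than in the primaries (log2 -2.54, adjusted p = 0.004), and C130074G19Rik and Gm3636 were lower in Met2 and Met3 than in Met1 (log2 -3.04, adjusted p = 0.00106 and log2 -3.57, adjusted p = 0.0141), the call of Gm3636 being lost with only the groups compared (adjusted p = 0.0642).

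Between the 2 primary groups, to which the rule gives no order, 0 of the 61 genes differed by edgeR's test, beside 0% of all genes. At an unadjusted p under 0.05 there were 2 of the 61 and 1063 of 14925, and DESeq2 called 0 of the 61 and 44 of all. Fitted log2 values of Primary3 against Primary2 ran from -1.70 (Sox17) to 2.79 (Aqp1). Between Met3 and Met2, 0 of the 61 differed, beside 0.275% of all genes (0.0536% higher and 0.221% lower). The rule required low values in both groups, and 40 of the 61 genes averaged under 1 CPM there. Few could therefore pass, and 0 calls does not show that Met2 and Met3 are alike. At an unadjusted p under 0.05 there were 11 of the 61 and 2157 of 14925 (14.5%), and DESeq2 called 4 of the 61 lower and 0 higher, and 588 of all in either direction.

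The 61 genes lay on 20 chromosomes. Chromosome 1 held 8 of them, 13.1% of the 61 beside 5.71% of the 10245 genes. Chromosomes 2 and 3 held 5 each (8.20%, beside 8.04% and 4.88% of the genes). Chromosomes 11 and 13 held 4 each (6.56%, beside 8.55% and 3.60%). Chromosomes X and 18 held 3 each (4.92%, beside 2.80% and 2.56%). Chromosomes 8, 9, 10, 14, 15 and 17 also held 3 each (beside 3.42% to 5.63%). Shares were lower than those of the genes on chromosomes 4 and 5, with 1 each (1.64%, beside 6.34% and 6.55%). Chromosome 7 held 2 (3.28%, beside 7.56%). Direct neighbours made up 4 pairs, with 0 other genes past the Primary minimum between them and gaps of 2220 to 25345 bases. They were Wnt6 and Wnt10a on chromosome 1 (6194 bases apart), Thbs3 and Muc1 on chromosome 3 (2220 bases apart), Scara3 and Clu on chromosome 14 (14548 bases apart), and 9930111J21Rik2 and Ifi47 on chromosome 11 (25345 bases apart).

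Met1 was lower than the primaries by the test for both genes of 2 pairs, Wnt6 and Wnt10a, and Thbs3 and Muc1, whose values are given above. In the pair of Scara3 and Clu, Met1 stood at 10.996% of the Primary mean for Scara3 and at 70.01% for Clu. For 9930111J21Rik2 it stood at 16.98% and for Ifi47 at 41.7%. Whether the genes of a pair differ in this was not tested.

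**Figure D3:**
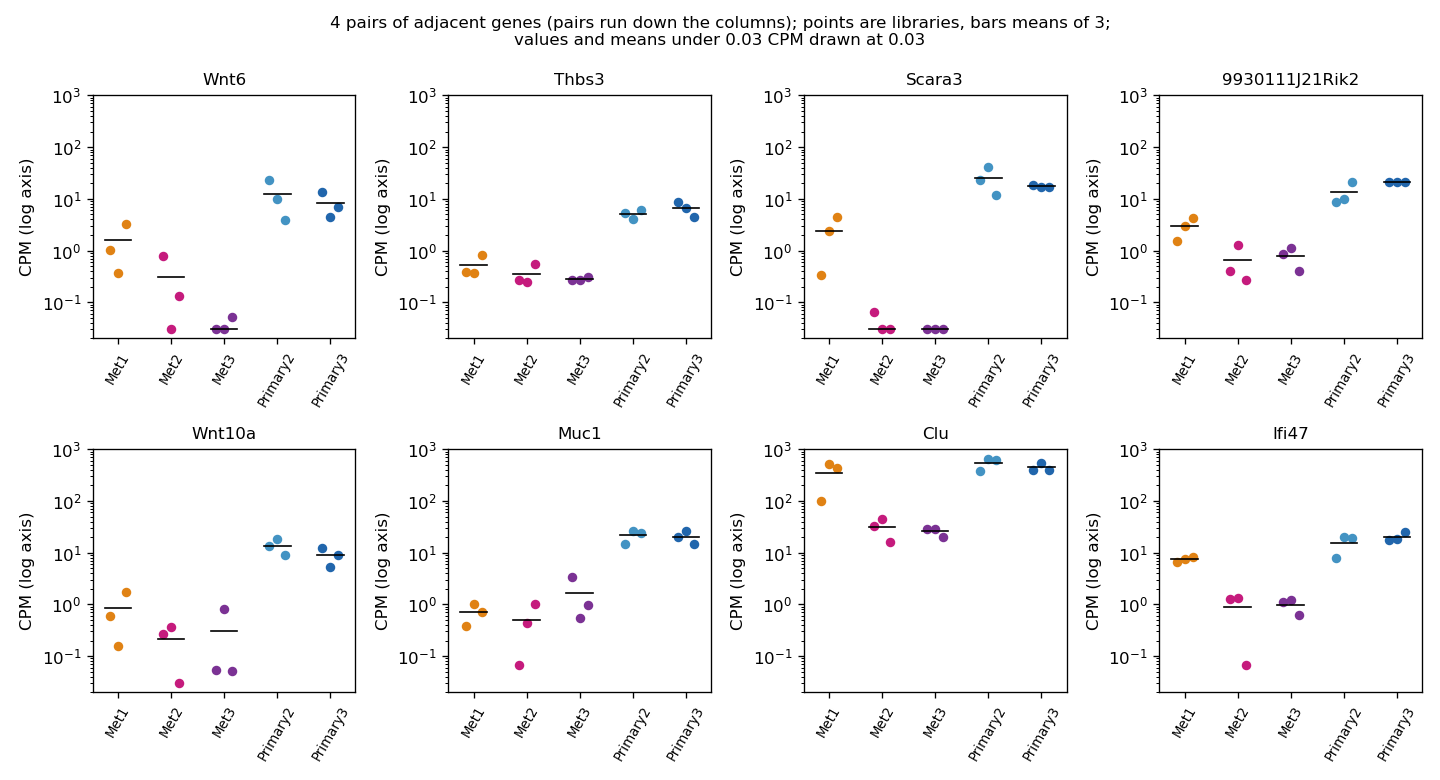
CPM (log axis, values and means under 0.03 drawn at 0.03) of the 4 pairs of adjacent genes, 1 pair per column, with each library as a point and the mean of 3 as a bar, for Met1, Met2, Met3, Primary2 and Primary3. Muc1 has its 3 Met1 points at or below the highest point of the later metastases, while Clu has 2 of its 3 Met1 points among those of primaries.

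Outside the pairs, neighbours differed in both directions. Areg, beside Ereg, averaged 229 CPM in the later metastases and 27.3 in the primaries. Naip6, beside Naip5, averaged 3.84 CPM in the later metastases and 43.6 in the primaries. Mtx1, which adjoins Thbs3 on its other side, had 37.9, 36.1 and 33.5 CPM in Met2 and 40.6, 33.5 and 30.3 in Met3, against 50.9, 51.2 and 44.7 in Primary2 and 47.4, 37.3 and 41.4 in Primary3. Trim46, which follows Muc1, had 1.59, 0.678 and 1.95 CPM in Met2 and 1.49, 1.35 and 0.922 in Met3, against 3.56, 6.38 and 6.37 in Primary2 and 4.39, 6.57 and 6.28 in Primary3, with no overlap. Hoxb6 and Hoxb8, which flank Hoxb7, were low in most later libraries too. Hoxb6 had 20.3, 0.123 and 0.134 CPM in Met2 and 0, 8.56 and 0.512 in Met3, against 24.4, 21.4 and 30.01 in Primary2 and 27.1, 16.6 and 16.9 in Primary3, and Hoxb8 had 6.94, 0.308 and 0 in Met2 and 0, 0.915 and 0.358 in Met3, against 10.9, 7.32 and 11.3 in Primary2 and 8.002, 5.58 and 7.199 in Primary3. As for Hoxb7, Met2 rep 1 and Met3 rep 2 were the highest libraries of their groups for both, and in Met2 rep 1 both were within the range of the primaries. Over all 112 nearest neighbours outside the set, 18 (16.1%) had a log2 ratio of the later mean to the Primary mean of -1 or less, beside 6.32% of the 10245 genes. The median log2 ratio was -0.26 for these neighbours and -0.10 for all genes.

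CpG content was measured in the first 300 bases of each gene's principal GENCODE transcript, where all 61 genes and 99.9% of the 10245 had a value. This window follows the start and is not the promoter. Observed over expected CpG had a median of 0.557 over the 61 genes and 0.781 over all. A GC share of at least 50% with a ratio of at least 0.6, one criterion of CpG-rich sequence, was met by 28 of the 61 (45.9%) and by 71.9% of all genes. A ratio under 0.4 was found in 18 of the 61 and in 1028 of 10230 genes. Median gene span was 20388 bases for the 61 and 23844 for all. No test was made of these differences. The 61 genes also had a lower median Primary level (21.1 against 36.1 CPM), and its relation to CpG content or gene span was not tested.

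**Figure D4:**
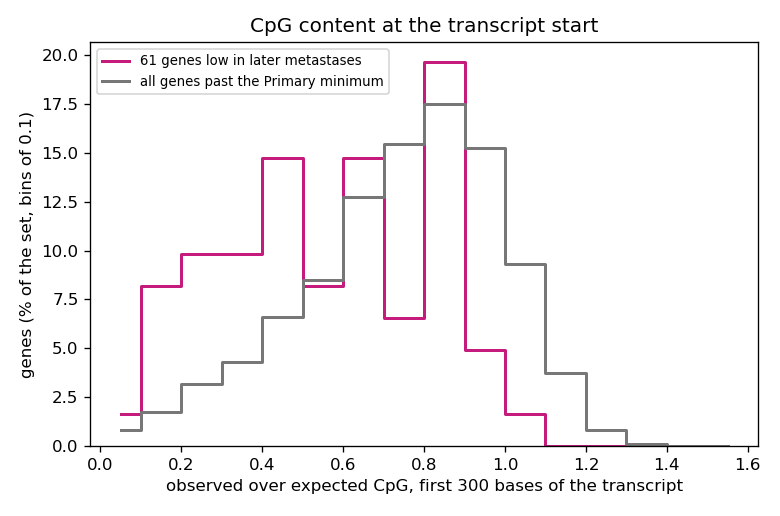
Share of genes (percent of each set, bins of 0.1) by the ratio of observed over expected CpG in the first 300 bases of the transcript, for the 61 genes (pink) and for all genes past the Primary minimum (grey). Ratios under 0.4 were found for 18 of the 61 genes and 1028 of all 10230.

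Seen from 17 gene lists by family or pathway, 37 of the 61 genes were in at least 1 list. Of all 14925 genes tested, of any biotype and level, the 61 are 0.409%. Of the 10245 protein-coding genes past the Primary minimum they are 0.595%. The lists count tested protein-coding genes without that minimum, so neither share is an exact match for them. The share of tested genes that belonged to the 61 was 5.66% for growth factors and morphogen signalling (6 of 106), 5.08% for extracellular matrix proteins (3 of 59), 3.81% for proteases and their inhibitors (4 of 105) and 3.55% for developmental transcription factors (6 of 169). It was 6.45% for YAP targets (2 of 31), 8.33% for Bex and Tceal adaptors (1 of 12) and 4.35% for endocytic and scavenger receptors (1 of 23). The lists of cytokines and chemokines (66 genes), imprinted genes (27) and zinc-finger Zfp genes (380) held 0 of the 61. Shares were 0.26% for transporters and channels (1 of 384) and 0.442% for metabolic enzymes (1 of 226). They ran from 1.09% to 1.65% for glycosyl- and sulfotransferases, cell adhesion, cytoskeleton, signalling regulators and immune genes.

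Over whole lists, calls went in both directions. Of 59 extracellular matrix genes 12 were lower and 5 higher in Met1 than in the primaries (median log2 -0.49), and 21 were lower and 3 higher in Met2 and Met3 than in Met1 (median -0.51). Of 106 growth factor and morphogen genes 20 were lower and 20 higher in Met1 than in the primaries (median 0.07), and 29 were lower and 11 higher in the later metastases than in Met1 (median -0.54). Of 169 developmental transcription factors 17 were lower and 44 higher in Met1 than in the primaries (median 0.20), and 46 were lower and 14 higher in the later metastases than in Met1 (median -0.29). Of 31 YAP targets 6 were lower and 4 higher in Met1 (median -0.26), and 13 lower and 4 higher in the later metastases than in Met1 (median -0.42). Over all genes tested, 14.7% were lower and 14.9% higher in Met1 than in the primaries (median -0.03). For the later metastases against Met1 it was 13.7% and 13.0% (median 0.01). Each list's counts include its members among the 61. Lists with few or none of the 61 also had more lower calls in the latter comparison. Examples are transporters and channels (76 lower, 27 higher of 384) and Zfp genes (71 and 14 of 380). Cytokines and chemokines went the other way (6 lower, 7 higher of 66).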

How the data were processed

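The deposited table holds estimated counts per Ensembl gene for 15 libraries, as whole numbers. Per the submitters' processing notes the authors used Salmon 1.3.0 and mm10; no source names the transcript-to-gene step or the rounding. Of 54418 gene IDs 54166 matched GENCODE M21 (GRCm38), which gave symbols, biotypes and positions. Genes were tested with edgeR 4.0.16 (TMM, filterByExpr, quasi-likelihood F test, all 15 libraries in one fit, Benjamini-Hochberg over 14925 genes) under R 4.3.3. Each SE was derived from the fitted log2 value and its F statistic. Checks used limma 3.58.1 and DESeq2 1.42.0, and the fit was tested on simulated counts. Counting intervals are 95% exact binomial ones and, like the floor of 3 counts over the group, cover counting error only. CPM and features were computed in Python 3.11.15. Same-numbered libraries of different groups deviated together in 8 of 30 pairs (correlation over 0.1). Their correlations ran from -0.126 to 0.268, beside a highest of 0.192 between differently numbered ones. This check cannot settle whether the numbers pair libraries, and the main fit used no pairing. No 2 libraries of a group agreed within sampling noise.

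The genes, lists, roles and tests were chosen with earlier results of these data known. Named genes followed a fixed rule (largest separation, highest Primary level, largest Met1 change, list membership, threshold edge, neighbours); the remaining members were named after their values were seen, so that members are accounted for. The counts cover all 61 genes, but 3 of them are not reported here by name and are left out of the plots. Roles were assigned by hand.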

Additional observations from a re-analysis of the deposited data

How the results depend on the processing

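The number of genes meeting the rule moved to 122 with a looser ratio and to 30 with a stricter one, at double and at 0.5 times the 0.25 limit. Without 1 library it ran from 61 to 120, the highest without Met2 rep 1. Leaving out a library can only keep or add genes under this rule, so the lower end of 61 was fixed in advance. With a Primary minimum of 1 or 5 CPM it was 78 or 46, and with TMM-scaled CPM 58. The count of genes lower in Met1 than in the primaries, 26, moved to 44 with limma-voom and ran from 20 to 31 without 1 library. The count lower in Met2 and Met3 than in Met1, 49, ran from 37 to 52 over all alternatives and from 39 to 52 without 1 library. For Met3 against Met2 DESeq2 gave 4 lower, and leaving out 1 library gave 0 to 1. For Primary3 against Primary2 leaving out 1 library gave 0 to 1 higher. The causes were not tested.

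With the replicate block, a pairing that the labels do not state, 29 genes were lower in Met1 than in the primaries and 49 lower in Met2 and Met3 than in Met1. Each library was set beside each other group, and it correlated best with its own number in 20 of 60 such cases. With 3 libraries in each group, 20 of 60 is also the count expected with no pairing.

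Of the 75 calls of single genes, 52 passed under every alternative that gave an adjusted p and 23 were lost under at least 1 of up to 21, with 0 changes of direction. Of 45 differences that did not pass, 22 passed under at least 1. Among those not passing, signs near 0 turned. For Met1 against the primaries Ereg had log2 values of 0.0151 with RLE, 0.0176 with no low-count filter, 0.0155 with DESeq2 and 0.0280 with only the groups compared, and Sox17 had 0.00647 with only the groups compared. Without 1 library the log2 value ran from -0.98 to 0.51 for Ereg, from -2.12 to 0.48 for Sox17, from -0.51 to 0.37 for Cldn2, from -0.0581 to 0.39 for Palmd, from -0.12 to 0.25 for Pcbd1, from -0.64 to 0.38 for Cfb and from -0.59 to 0.0647 for Renbp. For Met2 and Met3 against Met1 Sult1a1 had 0.0302 with limma-voom, and without 1 library the log2 value ran from -0.96 to 1.11 for Sult1a1, from -1.31 to 0.15 for Aqp1, from -1.30 to 1.58 for Mucl3, from -6.12 to 0.95 for Hoxb7, from -0.0589 to 0.85 for Muc1 and from -0.35 to 2.79 for Nkd2.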

Other observations

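Beyond protein-coding genes, 514 genes of other biotypes passed 2 CPM in every Primary library, and 2 of them met the same rule. Lncenc1, a long noncoding RNA on chromosome 13 known from embryonic stem cells, had 1.43, 2.67 and 5.45 CPM in Met1, 1.78, 0.308 and 0.336 in Met2 and 0.6395, 0.377 and 1.23 in Met3, against 53.2, 15.9 and 50.6 in Primary2 and 146, 136 and 132 in Primary3. All 9 metastasis libraries lay below every primary. Trdv4, annotated as a variable segment of the T cell receptor delta chain on chromosome 14, had 1.32, 2.72 and 5.31 CPM in Met1, 0.396, 0.123 and 0.537 in Met2 and 0.4796, 0.646 and 0.512 in Met3, against 5.61, 9.72 and 3.16 in Primary2 and 6.16, 10.2 and 10.9 in Primary3. Cd3e, a marker of T cells, stayed under 1 CPM in every library.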
